A study of Rattus norvegicus with 12 samples.

Results

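Genes of the muscle contractile machinery and of the muscle calcium store were followed in 12 RNA sequencing libraries of rat cells, 3 in each of 4 groups. The gene set held 40 symbols, chosen by name, of which 36 had a row among the 18344 rows of the expression table. Myl1, Myh8, Ryr1 and Atp2a1 had no row of that name, so their expression was not analysed here. By their labels all 12 cultures had gone through OGD/R, a term usually used for oxygen-glucose deprivation followed by reperfusion, a culture model of ischaemia. The 4 labels beside OGD/R are si-CIRBP (by its name a small interfering RNA against Cirbp), si-NC, CIRBP and NC, and si-NC and NC are taken as the controls of their arms. Cirbp encodes the cold-inducible RNA-binding protein. Cells that had not gone through OGD/R were not analysed here. The labels name the cells H9C2, a line from embryonic rat heart used as a myoblast model, while their cell line entry reads rat astrocytes. The labels give neither vector, dose or time of treatment nor whether the si arm (si-CIRBP and si-NC) and the other arm (CIRBP and NC) came from the same cells. Treatment, cell stock and handling therefore cannot be told apart between the arms.

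Contractile force in muscle comes from myosin heads that pull on actin filaments. In striated muscle the troponin complex on tropomyosin makes this depend on calcium, while smooth muscle relies on phosphorylation of the myosin light chain and on actin-binding proteins such as calponin and caldesmon. Calcium is held in the sarcoplasmic reticulum by calsequestrin, released through ryanodine receptors and pumped back by SERCA pumps, which phospholamban restrains. Undifferentiated myoblasts carry many of the smooth muscle filament genes, and the striated sarcomere genes come on when myoblasts differentiate.

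Expression was given as FPKM, a fragment count scaled to transcript length and library size. Groups were compared with limma on log2(FPKM + 1), fitted over all 12 libraries and 14257 genes that reached 1 FPKM in at least 3 of them, and called at an adjusted p under 0.05. The absolute depth of the libraries is unknown, and the spacing of low values gave relative depths of 0.843 to 1.03 (NC library 1 set to 1). Cirbp itself was at 26.5, 28.6 and 27.7 FPKM in si-CIRBP, against 29.02, 24.2 and 26.96 in si-NC (log2 fold change 0.05, SE 0.0652, adjusted p = 0.609). Cirbp mRNA was not lower under the label si-CIRBP, so si-CIRBP below means the libraries labelled so, and no direction rests on a measured loss of Cirbp. In CIRBP it was at 34.3, 36.5 and 36.5 FPKM, against 19.03, 19.8 and 20.1 in NC (log2 fold change 0.83, SE 0.0652, adjusted p = 2.47e-06). Replicates are labelled biological, with no word on separate experiments, so p-values measure only the spread between these libraries. That spread is taken per gene over all 12 libraries, also where a comparison holds only some of the groups. A value of exactly 0 can be a failed estimate and is given as listed at 0. FPKM of a bulk culture cannot tell fewer muscle-like cells from less RNA per cell.

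The si libraries carried muscle filament genes that the CIRBP and NC libraries held close to 0. Of the 36 genes, 26 to 30 reached 1 FPKM in si-CIRBP and 22, 29 and 28 in si-NC libraries 1, 2 and 3, against 7, 8 and 12 in CIRBP and 11, 12 and 13 in NC. Cnn2, Cald1, Tpm1 and Atp2a2, which many non-muscle cells also express, stood at 39.3 FPKM or more in every library. The other 32 genes summed to 1569, 1989 and 2539 FPKM in si-CIRBP libraries 1, 2 and 3 and to 262, 3248 and 2355 in si-NC. Their sum was 15.01 to 18.5 FPKM in CIRBP and 22.5 to 26.8 in NC. The arms did not overlap in this sum, and si-NC library 1 lay far below the other 5 si libraries. Much of the sum in si libraries came from genes that other mesenchymal cells also make, such as Acta2 and Tagln.

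**Figure D1:**
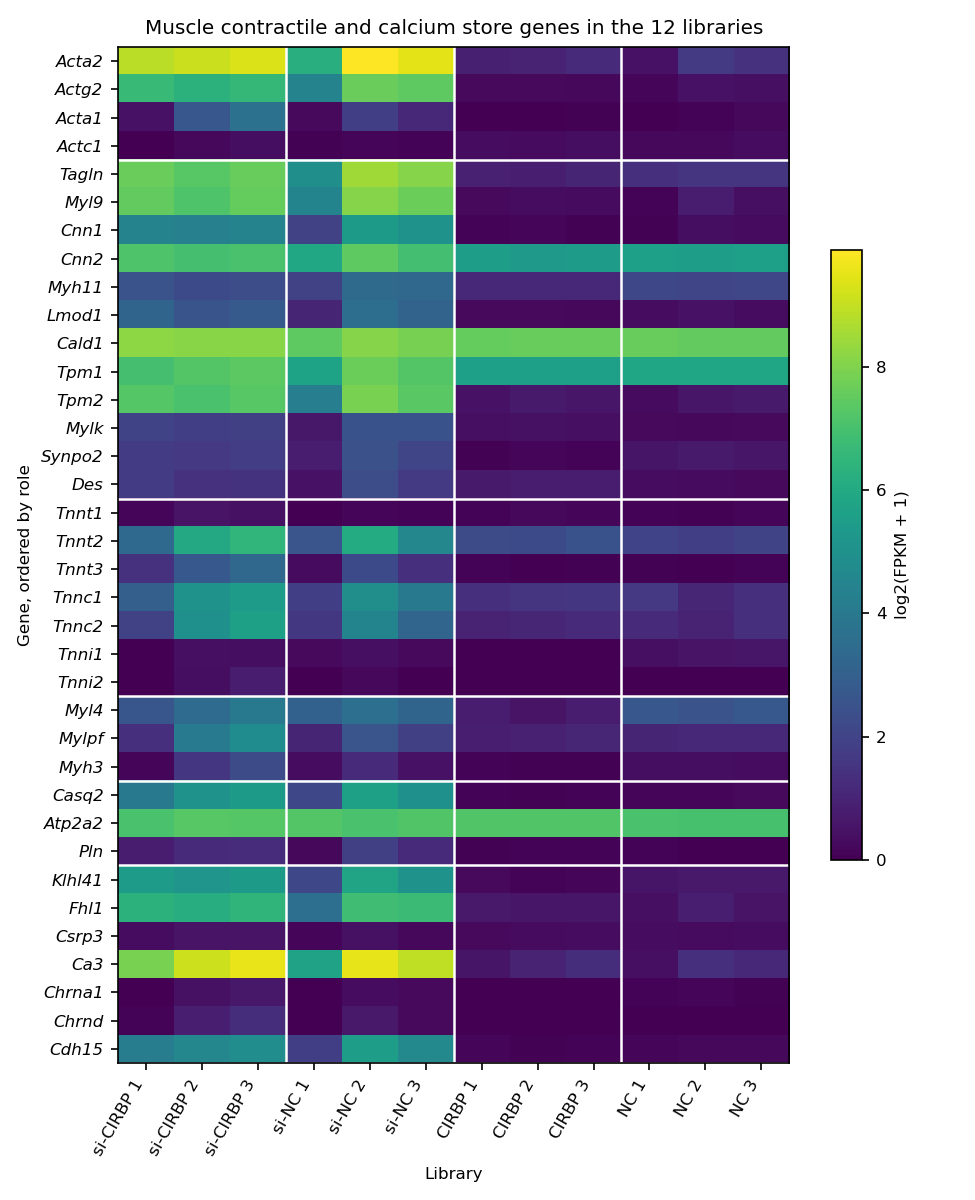
Heat map of log2(FPKM + 1) for the 36 genes (rows, in blocks by role: actins, smooth muscle filament regulators, troponins, striated myosins, calcium store, scaffold and surface genes) in the 12 libraries (columns). Rows such as Acta2, Tagln, Tpm2 and Ca3 are bright in the si libraries and dark in CIRBP and NC, with si-NC library 1 dimmer than si-NC libraries 2 and 3. Rows such as Actc1, Tnnt1, Tnni1 and Csrp3 are dark in all 12, while Cnn2, Cald1, Tpm1 and Atp2a2 are bright in all 12.

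In limma, 27 of the 29 genes tested rose in si-CIRBP against CIRBP and none fell, where 44.6% of all genes tested were called, 22.0% higher and 22.5% lower. In si-NC against NC, 19 rose and none fell, beside 34.4% of all genes called, 12.5% higher and 21.9% lower. The groups did not overlap for 28 of the 29 in the first comparison and 24 in the second, all higher, beside 27.2% and 19.1% of all genes higher and 28.2% and 34.0% lower. These 2 comparisons share no library. At an unadjusted p under 0.05, 28 and 23 were higher and none was lower. The share of all genes at that threshold was not computed, so these counts have no background beside them. Of the 29, 16 reached the filter on low values only through the si libraries, a choice that favours genes higher there, so the counts and median over the 29 are a description and no support. Without the filter, all 36 were tested, and 28 rose in the first comparison and 18 in the second. In that setting 36.9% and 30.3% of all 18344 genes were called, higher or lower. The remaining 7 genes (Actc1, Tnnt1, Tnni1, Tnni2, Csrp3, Chrna1 and Chrnd) did not pass the filter. The median log2 fold change of the 29 was 2.66 and 1.93, against -0.01 and -0.07 over all genes tested.

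**Figure D2:**
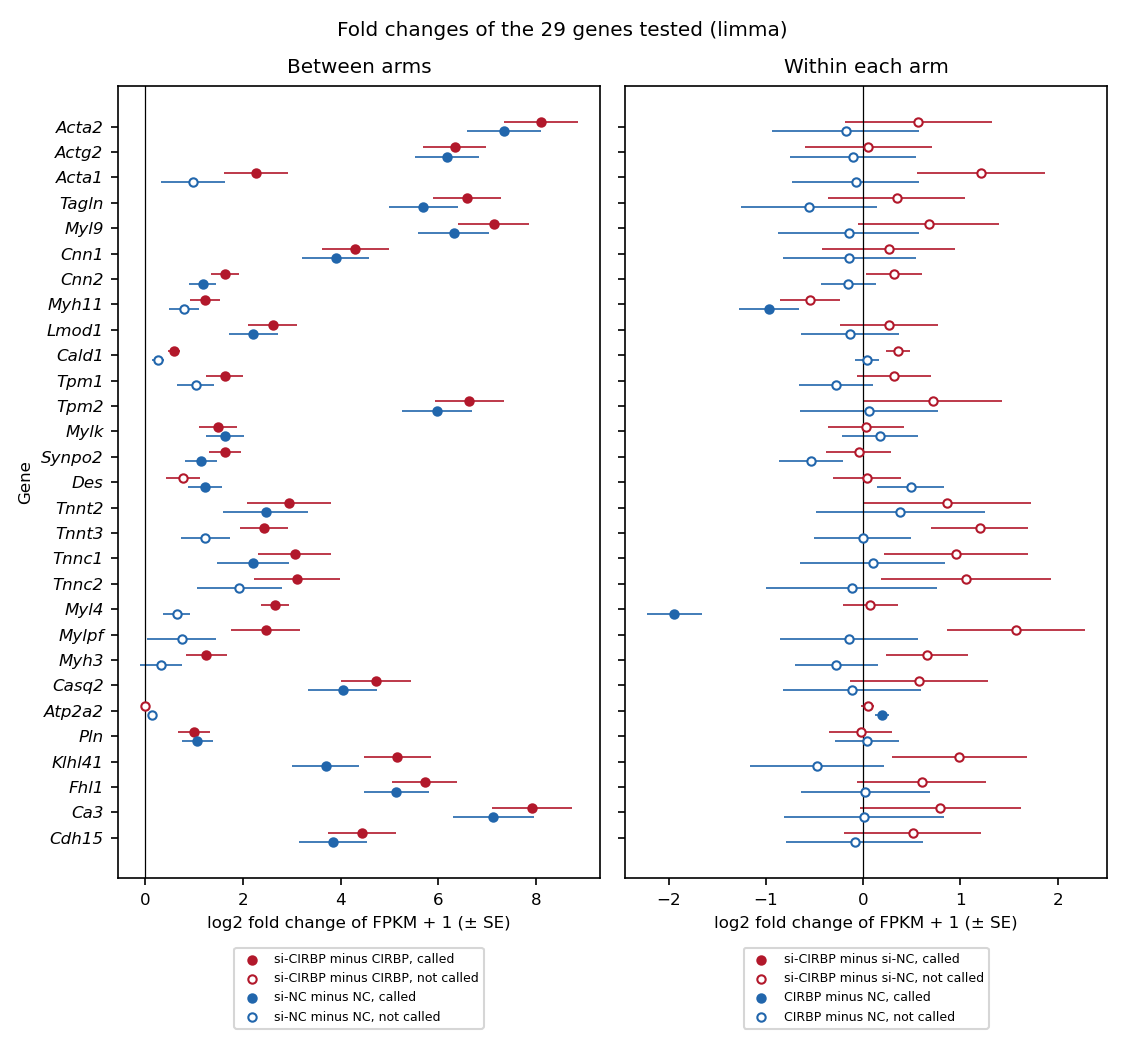
Log2 fold changes of FPKM + 1 with standard errors for the 29 genes tested, between arms on the left and within each arm on the right, where filled points passed limma at an adjusted p under 0.05. The fold changes between arms reach 8.10 for Acta2 and lie near 0 for Atp2a2, while within the arms only Myl4, Myh11 and Atp2a2 are filled, all in CIRBP minus NC.

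The actins form the thin filament. Acta2, the smooth muscle actin that myoblasts and myofibroblasts also make, was at 466, 546 and 659 FPKM in si-CIRBP, 73.8, 954 and 722 in si-NC, 0.824, 0.978 and 1.26 in CIRBP and 0.4001, 2.18 and 1.66 in NC. Every si library lay above every CIRBP and NC library. Acta2 rose in si-CIRBP against CIRBP (log2 fold change 8.10, SE 0.759, adjusted p = 3.10e-05) and in si-NC against NC (log2 fold change 7.35, SE 0.759, adjusted p = 0.000181, or 8.51 without si-NC library 1). Actg2, the enteric smooth muscle actin, stood at 105, 81.9 and 96.3 FPKM in si-CIRBP, 20.5, 200.4 and 175 in si-NC, 0.1899, 0.176 and 0.164 in CIRBP and 0.09797, 0.393 and 0.3199 in NC. Its level was 0.131 to 0.278 of that of Acta2 in all 12 libraries, in arms that differed by more than 6 on the log2 scale. The muscle actins are near-identical in their coding sequence, and the labels do not say how shared reads were counted, so each of them is uncertain alone. Acta1, the skeletal muscle actin, followed another order, at 0.409, 5.47 and 12.1 FPKM in si-CIRBP libraries 1, 2 and 3 and 0.201, 2.61 and 1.22 in si-NC. CIRBP libraries were listed at 0.0235, 0 and 0.0541 and NC libraries at 0.0242, 0.0555 and 0.173 FPKM. Acta1 rose in si-CIRBP against CIRBP (log2 fold change 2.26, SE 0.656, adjusted p = 0.0169), a call lost without si-CIRBP library 2 or 3 and in a fit of those 6 libraries alone. The cardiac actin Actc1 was under 0.3 FPKM in all 12 libraries and was not tested.

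To show what lies at the starts of genes that separated the arms and of one that did not, the promoters of Acta2, Acta1, Tnnt2, Klhl41 and Atp2a2 are given, from 250 bases before to 50 bases after the start, 5′ to 3′ on the strand of the gene (RefSeq, GRCr8). Capitals mark CArG boxes, the sites of serum response factor, with any base allowed at 1 of the central positions, and CAGCTG, a form of the E-box CANNTG that MyoD binds. For Tnnt2, which has 2 starts in the table, the more upstream one is shown.
Acta2, GRCr8 chr1:241172454-241172753, minus strand: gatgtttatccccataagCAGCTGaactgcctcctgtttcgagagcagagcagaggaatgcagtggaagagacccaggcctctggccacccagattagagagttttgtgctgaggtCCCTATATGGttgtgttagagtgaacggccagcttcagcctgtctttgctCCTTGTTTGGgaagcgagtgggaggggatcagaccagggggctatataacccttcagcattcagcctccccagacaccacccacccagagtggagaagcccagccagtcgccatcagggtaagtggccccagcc
Acta1, GRCr8 chr19:68784145-68784444, minus strand: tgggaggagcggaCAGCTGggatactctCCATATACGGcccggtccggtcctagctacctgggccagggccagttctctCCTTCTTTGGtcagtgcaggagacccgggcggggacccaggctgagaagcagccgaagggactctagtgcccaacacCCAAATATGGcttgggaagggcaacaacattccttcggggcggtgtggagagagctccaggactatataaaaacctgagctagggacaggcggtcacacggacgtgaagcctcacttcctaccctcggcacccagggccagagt
Tnnt2, GRCr8 chr13:49818873-49819172, plus strand: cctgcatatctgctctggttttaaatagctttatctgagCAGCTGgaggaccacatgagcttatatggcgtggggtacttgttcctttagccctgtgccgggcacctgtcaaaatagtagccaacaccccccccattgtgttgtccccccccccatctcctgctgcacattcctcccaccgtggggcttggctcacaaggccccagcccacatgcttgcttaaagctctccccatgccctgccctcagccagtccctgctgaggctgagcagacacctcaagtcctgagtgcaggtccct
Klhl41, GRCr8 chr3:74841868-74842167, plus strand: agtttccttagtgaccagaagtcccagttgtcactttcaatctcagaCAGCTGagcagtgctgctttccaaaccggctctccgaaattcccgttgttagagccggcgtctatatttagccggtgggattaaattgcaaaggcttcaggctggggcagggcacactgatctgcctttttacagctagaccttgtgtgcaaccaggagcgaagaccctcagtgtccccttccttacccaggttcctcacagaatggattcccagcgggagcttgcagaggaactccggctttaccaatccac
Atp2a2, GRCr8 chr12:39733269-39733568, plus strand: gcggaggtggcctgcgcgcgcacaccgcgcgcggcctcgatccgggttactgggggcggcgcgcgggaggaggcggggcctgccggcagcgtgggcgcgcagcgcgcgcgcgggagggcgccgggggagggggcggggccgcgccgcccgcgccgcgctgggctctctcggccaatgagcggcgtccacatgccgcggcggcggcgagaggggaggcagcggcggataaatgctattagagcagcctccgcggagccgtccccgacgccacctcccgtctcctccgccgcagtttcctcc
Positions are those of the first base of a match, counted from the start. Acta2 holds CArG forms at -134 and -84 and CAGCTG at -232. Acta1 holds CArG forms at -222, -171 and -94, the last with no deviating base, and CAGCTG at -237. Tnnt2 holds CAGCTG at -211, though its other start does not, and Klhl41 holds it at -203. Atp2a2 held neither form in this window. These promoters are examples and do not stand for the set. Of other genes that separated the arms, Cnn1 and Pln, for example, held CAGCTG, and Actg2, Casq2, Cdh15 and Fhl1, for example, did not. Exact CArG boxes also lay in Cnn2, high in every library, and in Actc1, low in every library. Over the 31 genes of the set with a promoter in the table (35 windows), 4 held an exact CArG box in 4 windows (Acta1, Actc1, Cnn2 and Fhl1), against 1.64% of 33469 windows of all genes. With 1 deviating base allowed, 6 genes did in 6 windows (9.42% of all windows; adding Acta2 and Atp2a1), and 10 held CAGCTG in 10 windows (15.1%). The CANNTG form is common and was found in 27 of the 31 genes and 31 of the 35 windows (72.1% of all windows). All motifs read the same on both strands in these forms, CAGCTG is contained in CANNTG and the exact CArG box in the looser one. Tagln, Myl9, Myh11, Lmod1, Tnnt3, Tnnc1, Mylpf, Csrp3 and Ca3 had no entry. A match is a description of the letters and does not show binding.

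Among the smooth muscle filament regulators, 11 of 12 rose in si-CIRBP against CIRBP and 9 in si-NC against NC, beside 22.0% and 12.5% of all genes tested. Myl9, Cnn1, Lmod1, Tpm2, Mylk, Synpo2 and Des passed the filter only through the si libraries, so these counts are a description. Tagln, the actin-bundling protein transgelin, was at 196, 159.9 and 193 FPKM in si-CIRBP, 29.2, 357 and 277 in si-NC, 0.8603, 0.799 and 1.05 in CIRBP and 1.61, 1.91 and 1.88 in NC (log2 fold change 6.59, SE 0.703, adjusted p = 6.43e-05 for si-CIRBP against CIRBP; log2 fold change 5.69, SE 0.703, adjusted p = 0.000422 for si-NC against NC). Tpm2, the beta-tropomyosin that lies along actin, was at 156, 132 and 159.8 FPKM in si-CIRBP, 18.05, 238 and 165 in si-NC, 0.385, 0.624 and 0.522 in CIRBP and 0.233, 0.509 and 0.637 in NC. Both genes had all si libraries above all others. Myl9, the regulatory light chain of smooth muscle myosin, was at 184, 144 and 186 FPKM in si-CIRBP, 20.96, 275 and 202 in si-NC, 0.183, 0.259 and 0.211 in CIRBP and 0.06301, 0.722 and 0.337 in NC (log2 fold changes 7.13 and 6.31). Cnn1, the smooth muscle calponin, averaged 20.1 ± 0.991 FPKM in si-CIRBP and 25.6 ± 20.1 in si-NC, against 0.0716 ± 0.0221 in CIRBP and 0.186 ± 0.126 in NC (SD, n = 3 each). Lmod1, a leiomodin that nucleates actin filaments, ranged from 4.903 to 8.097 FPKM in si-CIRBP and 1.04 to 10.9 in si-NC, against 0.164 to 0.195 in CIRBP and 0.2395 to 0.399 in NC.

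Further members of that group were low even in the si libraries. Myh11, the smooth muscle myosin heavy chain, was at 4.81, 3.62 and 4.04 FPKM in si-CIRBP, 2.86, 9.71 and 9.15 in si-NC, 1.22, 1.17 and 1.23 in CIRBP and 3.39, 3.24 and 3.32 in NC. Its si-NC and NC libraries overlapped (log2 fold change 0.79, SE 0.307, adjusted p = 0.0681), although si-CIRBP lay above CIRBP (log2 fold change 1.22, SE 0.307, adjusted p = 0.00865). Mylk, the kinase of the myosin light chain, was at 3.13, 2.53 and 2.65 FPKM in si-CIRBP and 0.572, 4.68 and 4.65 in si-NC, and at 0.164 to 0.348 in CIRBP and NC together. Synpo2, an actin-bundling protein of the Z disc, was at 2.31, 2.09 and 2.502 FPKM in si-CIRBP and 0.696, 4.501 and 3.24 in si-NC. Both rose in each comparison between arms, with log2 fold changes of 1.49 and 1.63 for Mylk and of 1.63 and 1.14 for Synpo2. Des, the muscle intermediate filament desmin, did not pass in si-CIRBP against CIRBP (2.36, 1.696 and 1.76 FPKM in si-CIRBP and 0.651, 0.7401 and 0.7501 in the 3 CIRBP libraries; log2 fold change 0.77, SE 0.347, adjusted p = 0.0954), although these groups did not overlap. In si-NC against NC it rose (log2 fold change 1.22, SE 0.347, adjusted p = 0.0214), but that call was lost without si-NC library 2 or 3 or any 1 NC library. The same held for Synpo2, Tnnt2, Tnnc1 and Pln in that comparison. A fit of the si-NC and NC libraries alone lost these 5 calls and those of Mylk (adjusted p = 0.0504) and Cnn2 (adjusted p = 0.0516), and gained Myl4, for 13 calls in place of 19. In that fit 31.6% of all genes were called.

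The broadly expressed regulators moved less. Cald1, caldesmon, was at 295, 281 and 281 FPKM in si-CIRBP, 173, 271 and 234 in si-NC, 187, 192 and 191 in CIRBP and 191, 182 and 181 in NC. In si-CIRBP it rose against CIRBP (log2 fold change 0.59, SE 0.124, adjusted p = 0.00338), whereas si-NC and NC overlapped. Cnn2, the calponin of non-muscle cells, was at 142, 125 and 133 FPKM in si-CIRBP, 58.3, 172 and 121 in si-NC, 44.1, 39.3 and 42.7 in CIRBP and 46.8, 45.8 and 47.7 in NC, and rose in both comparisons between arms (log2 fold changes 1.64 and 1.18). Tpm1, the alpha-tropomyosin gene, whose transcript forms differ between muscle and other cells, was at 125, 153 and 167 FPKM in si-CIRBP, 51.97, 206 and 152 in si-NC, 46.98, 47.01 and 46.98 in CIRBP and 56.4, 57.5 and 57.6 in NC. The 3 si-CIRBP libraries were above CIRBP (log2 fold change 1.63, SE 0.377, adjusted p = 0.00552), and si-NC library 1 lay below all NC libraries (adjusted p = 0.05599 for si-NC against NC). With 1 value for each gene, these forms could not be compared.

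**Figure D3:**
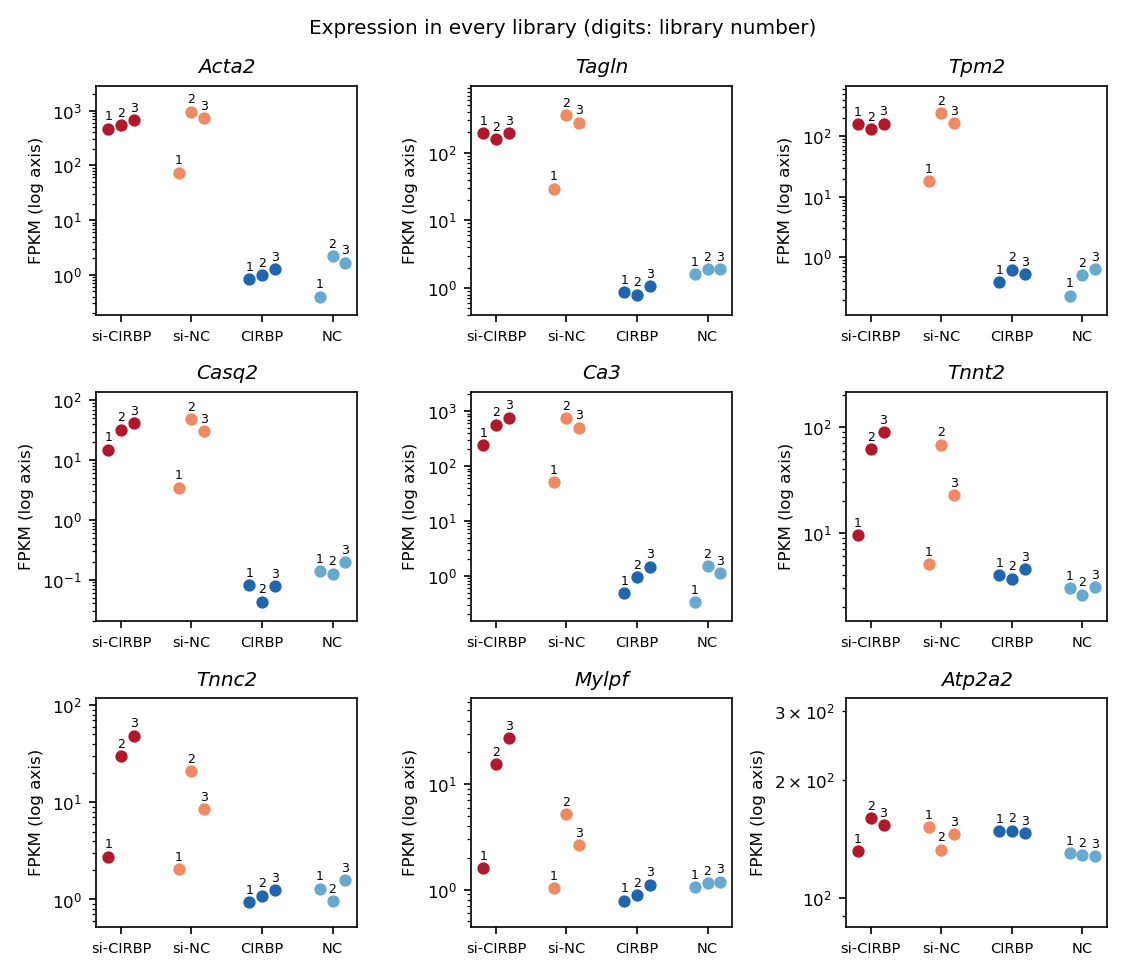
FPKM of 9 genes in each library on log axes, with the library number above each point. The points of si-CIRBP and si-NC lie above those of CIRBP and NC for Acta2, Tagln, Tpm2, Casq2 and Ca3, library 1 of si-CIRBP lies with libraries 2 and 3 for Tagln and Tpm2 but far below them for Tnnt2, Tnnc2 and Mylpf, and Atp2a2 spans 128 to 160.0 FPKM in all 12.

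Troponins, the calcium switch of the striated thin filament, differed within the si groups as well as between arms. Tnnt2, the cardiac troponin T that also marks early skeletal differentiation, was at 9.45, 61.4 and 89.9 FPKM in si-CIRBP, 5.05, 68.1 and 22.7 in si-NC, 3.96, 3.7 and 4.56 in CIRBP and 2.99, 2.61 and 3.07 in NC. Library 1 of each si group stood far below libraries 2 and 3. Tnnc1, the slow and cardiac troponin C, was at 6.95, 32.8 and 43.5 FPKM in si-CIRBP, 2.54, 28.4 and 14.8 in si-NC, 1.51, 1.78 and 1.93 in CIRBP and 2.11, 1.11 and 1.55 in NC. Tnnc2, the fast skeletal troponin C, was at 2.75, 29.98 and 48.8 FPKM in si-CIRBP, 2.06, 21.1 and 8.48 in si-NC, 0.941, 1.09 and 1.24 in CIRBP and 1.29, 0.955 and 1.59 in NC. Tnnt3, the fast skeletal troponin T, was at 1.63, 5.68 and 8.84 FPKM in si-CIRBP and 0.225, 3.701 and 1.49 in si-NC, against 0 to 0.0601 in CIRBP and 0 to 0.0737 in NC. All 4 rose in si-CIRBP against CIRBP (log2 fold changes 2.95, 3.06, 3.104 and 2.43), with Tnnt2 and Tnnc2 lost without si-CIRBP library 2 or 3, and Tnnt2 also without CIRBP library 2. Of all genes tested, 22.0% rose there, and Tnnt3 passed the filter only through the si libraries, so the count is a description. In si-NC against NC, Tnnt2 (log2 fold change 2.47, SE 0.866, adjusted p = 0.0486) and Tnnc1 (log2 fold change 2.21, SE 0.743, adjusted p = 0.0414) passed. Tnnt1, the slow troponin T, Tnni1, the slow troponin I, and Tnni2, the fast troponin I, stayed under 1 FPKM in all libraries. Tnni2 was listed at 0 in all 6 CIRBP and NC libraries, and reached 0.0195, 0.287 and 0.723 FPKM in si-CIRBP.

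Among the striated myosins, Mylpf and Myh3 were also low in si-CIRBP library 1. Mylpf, the regulatory light chain of fast skeletal myosin, was at 1.61, 15.4 and 27.4 FPKM in si-CIRBP, 1.04, 5.19 and 2.65 in si-NC, 0.784, 0.881 and 1.12 in CIRBP and 1.05, 1.15 and 1.19 in NC. Myh3, the embryonic myosin heavy chain, was at 0.132, 1.92 and 3.86 FPKM in si-CIRBP and 0.269, 1.33 and 0.39 in si-NC, and at 0.0415 to 0.304 in CIRBP and NC together. Both overlapped between si-NC and NC. They rose in si-CIRBP against CIRBP (log2 fold changes 2.47 and 1.26), calls that were lost without si-CIRBP library 2 or 3 and in a fit of those 6 libraries alone, and for Myh3 also without any 1 CIRBP library. Myl4, the embryonic and atrial essential light chain, was at 0.721, 0.4501 and 0.733 FPKM in CIRBP and, well above that, at 5.42, 4.72 and 5.66 in NC. In the si arm it was at 5.25, 9.88 and 15.1 FPKM in si-CIRBP and 7.36, 11.4 and 8.07 in si-NC.

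Of the calcium store genes, Casq2, the cardiac calsequestrin that buffers calcium in the store, was at 14.97, 32.1 and 41.5 FPKM in si-CIRBP, 3.45, 48.5 and 30.1 in si-NC, 0.07998, 0.0425 and 0.0768 in CIRBP and 0.138, 0.126 and 0.196 in NC. It rose in si-CIRBP against CIRBP (log2 fold change 4.73, SE 0.708, adjusted p = 0.000487) and in si-NC against NC (log2 fold change 4.04, SE 0.708, adjusted p = 0.00242), with no overlap. Pln, phospholamban, was low throughout, at 0.735, 1.28 and 1.41 FPKM in si-CIRBP and 0.1601, 2.68 and 1.35 in si-NC, against at most 0.06896 in CIRBP and NC (log2 fold changes 1.01 and 1.07). Its call in si-CIRBP against CIRBP was lost without si-CIRBP library 2 or 3 or any 1 CIRBP library. Atp2a2, the SERCA2 pump, present in most cells as its housekeeping form, was at 132, 160.0 and 153 FPKM in si-CIRBP, 152, 133 and 146 in si-NC, 148, 149 and 147 in CIRBP and 131, 129 and 128 in NC. It did not follow the arms: si-CIRBP overlapped CIRBP (log2 fold change 0.00, SE 0.0711, adjusted p = 0.996), while all si-NC libraries lay above all NC libraries without passing the test (log2 fold change 0.15, SE 0.0711, adjusted p = 0.131). With either scaling of the libraries, Atp2a2 was called higher in si-NC against NC.

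Of the 7 scaffold, enzyme and surface genes 4 were tested, and these rose in both comparisons between arms, beside 22.0% and 12.5% of all genes tested. Fhl1, Klhl41 and Cdh15 passed the filter only through the si libraries, so that count is a description. Ca3, the carbonic anhydrase abundant in slow muscle, was at 237, 564 and 753 FPKM in si-CIRBP, 51.4, 741 and 498 in si-NC, 0.489, 0.948 and 1.47 in CIRBP and 0.329, 1.51 and 1.12 in NC (log2 fold change 7.92, SE 0.825, adjusted p = 5.71e-05 for si-CIRBP against CIRBP). Fhl1, a LIM-domain scaffold of muscle, was at 81.7, 71.5 and 88.2 FPKM in si-CIRBP, 11.3, 115 and 107 in si-NC, 0.598, 0.4997 and 0.528 in CIRBP and 0.341, 0.798 and 0.452 in NC. Klhl41, a kelch protein that keeps nebulin and the thin filament stable, was at 41.7, 34.7 and 41.4 FPKM in si-CIRBP, 3.43, 53.4 and 33.1 in si-NC, 0.177, 0.0625 and 0.119 in CIRBP and 0.471, 0.609 and 0.595 in NC. Neither group of the si arm overlapped with CIRBP or NC for these 3 genes. Cdh15, the myoblast adhesion protein M-cadherin, averaged 22.6 ± 5.78 FPKM in si-CIRBP and 24.3 ± 21.5 in si-NC, against 0.0645 ± 0.0183 in CIRBP and 0.131 ± 0.0268 in NC (SD, n = 3 each). Csrp3, the muscle LIM protein, stayed under 0.5 FPKM in all libraries. The acetylcholine receptor subunits Chrna1 and Chrnd peaked in si-CIRBP library 3, at 0.547 and 1.48 FPKM, and Chrnd was listed at 0 in all 6 CIRBP and NC libraries.

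Single libraries of the si groups differed in which of the genes were low. In si-NC library 1, the ratio to the mean of si-NC libraries 2 and 3 had a median of 0.111 over the 29 genes, against 1.06 over all genes tested, and 21 of the 29 lay under 0.25 (4.50% of all genes tested). Acta2 (0.0881), Tagln (0.0922), Casq2 (0.0879), Klhl41 (0.0794), Cdh15 (0.0745) and Tnnt3 (0.0869) all had ratios under 0.1. The 4 genes high in every library ranged widely, with 0.2899 for Tpm1, 0.398 for Cnn2, 0.686 for Cald1 and 1.09 for Atp2a2. In si-CIRBP library 1, by contrast, the ratio to the mean of libraries 2 and 3 was 0.782 to 1.49 for the 12 smooth muscle filament regulators and 0.0700 to 0.225 for the 4 troponins. Under 0.25 lay 7 genes of the 29 (0.821% of all genes tested), namely Acta1, Tnnt2, Tnnt3, Tnnc1, Tnnc2, Mylpf and Myh3, all of the striated sarcomere. Ca3 (0.359), Casq2 (0.407), Pln (0.547) and the striated light chain Myl4 (0.421) stood between, and Myl4 was also nearer to 1 in si-NC library 1 (0.756). The ratio of si-NC library 3 to si-NC library 2 also differed by role, with a median of 0.402 for the troponins and 0.738 for the smooth muscle regulators. These ratios compare single libraries and carry no test, and the roles were known when they were grouped.

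**Figure D4:**
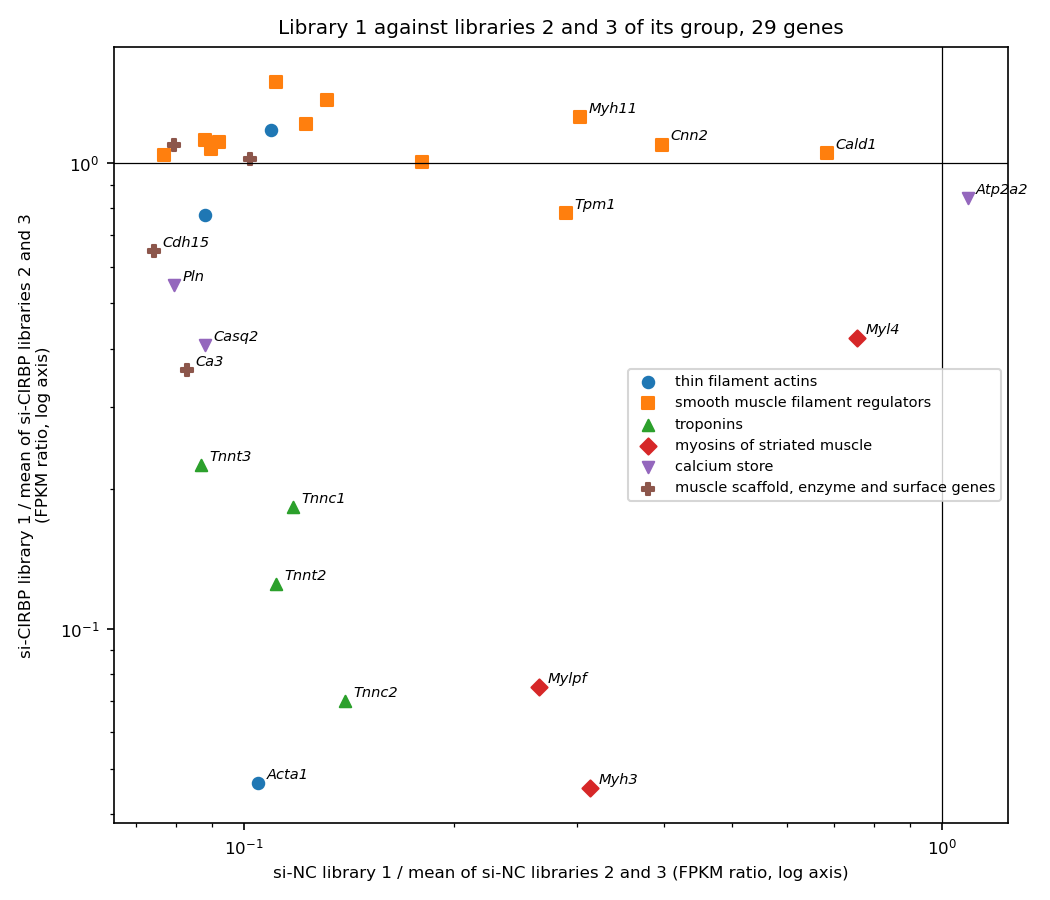
For the 29 genes tested, the FPKM ratio of si-NC library 1 to the mean of si-NC libraries 2 and 3 (horizontal) against that of si-CIRBP library 1 to the mean of si-CIRBP libraries 2 and 3 (vertical), on log axes, with a symbol per role. Smooth muscle regulators sit near 1 on the vertical axis, the troponins, Acta1, Mylpf and Myh3 lie at 0.225 or lower, and 21 of the 29 lie under 0.25 on the horizontal axis.

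The myogenic factors Myod1 and Myog and some markers of other cell types moved with these differences, and their part in them was not tested. Myod1, the myogenic factor of committed myoblasts, was at 11.02, 9.83 and 11.6 FPKM in si-CIRBP, 1.74, 21.6 and 15.2 in si-NC, 0.0346, 0.0367 and 0.0798 in CIRBP and 0, 0.0819 and 0.0424 in NC. Myog, the factor of myoblast differentiation, was at 1.48, 28.7 and 44.8 FPKM in si-CIRBP and 0.798, 20.0 and 6.03 in si-NC, against at most 0.124 in CIRBP and NC. Both were at or close to 0 in CIRBP and NC, so these markers of the myoblasts that the H9C2 label names were near absent there. The si-CIRBP library 1 was as high in Myod1 as libraries 2 and 3 but low in Myog. Of the 5 myogenic factors found among 8 symbols, 2 rose and 1 fell in si-CIRBP against CIRBP (all genes tested: 22.0% and 22.5%). In si-NC against NC 1 rose and 1 fell (all genes tested: 12.5% and 21.9%). The median log2 fold changes of the 5 were -0.07 and -0.11. Myod1 and Myog passed the filter only through the si libraries, so these counts are a description. The others were the MEF2 factors, partners of MyoD that many cells express. Mef2a fell in si-NC against NC (-0.31), Mef2c fell in si-CIRBP against CIRBP (-0.65), and Mef2d passed in neither. Mesenchymal markers (9 of 10 symbols found) summed to 5336 to 6327 FPKM in si-CIRBP, 4462 to 5678 in si-NC, 5259 to 5434 in CIRBP and 4754 to 4854 in NC, mostly Vim, S100a4 and Fn1. Among them Col1a1, the collagen chain of fibroblasts, was at 314, 539.6 and 683 FPKM in si-CIRBP, 42.4, 661 and 395 in si-NC, 1.02, 1.204 and 1.79 in CIRBP and 1.19, 2.36 and 1.84 in NC, and Dcn, decorin, was listed at 0 in 5 of the 6 CIRBP and NC libraries. Of these 9 markers, 7 rose and 1 fell in si-CIRBP against CIRBP (all genes tested: 22.0% and 22.5%). In si-NC against NC 6 rose and 1 fell (all genes tested: 12.5% and 21.9%). Their median log2 fold changes were 2.34 and 1.37. Some, such as Thy1, passed the filter only through the si libraries, so these counts are a description. The oligodendrocyte lineage markers (7 of 7 found) summed to 296 to 315 FPKM in si-CIRBP, 296 to 418 in si-NC, 466 to 482 in CIRBP and 416 to 423 in NC. In that list Sox10, a glial transcription factor, was at 123, 123 and 126 FPKM in si-CIRBP, 193, 145 and 155 in si-NC, 157, 153 and 155 in CIRBP and 203, 203 and 202 in NC. Astrocyte markers (7 of 8 found) summed to 209 to 223, 166 to 197, 283 to 301 and 191 to 204 FPKM in the same order, with Aldh1l1 at most 0.287 FPKM. Of 5 oligodendrocyte markers tested, 5 fell in si-CIRBP against CIRBP and 3 in si-NC against NC, and none rose (medians -0.97 and -0.31). Of 5 astrocyte markers tested, 1 rose and 3 fell in the first comparison, and 2 rose and 2 fell in the second (medians -0.40 and -0.24). Beside both lists, 22.0% of all genes tested rose and 22.5% fell in the first comparison, and 12.5% and 21.9% in the second. Cardiac markers (6 of 7 found) summed to 5.37 to 11.9 FPKM over all libraries, with Nkx2-5 listed at 0 in all CIRBP and NC libraries. Endothelial (2 of 4 found), macrophage (2 of 4) and epithelial (3 of 4) markers summed to 1.75 to 5.27, 1.11 to 3.98 and 15.6 to 18.5 FPKM.

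The order of low values in CIRBP and NC was set beside that of the same-numbered si libraries, as a description. A set of 7 genes averaged at least 50 FPKM in the si libraries and stayed under 3 FPKM in all CIRBP and NC libraries, a choice made after the values were seen (Acta2, Actg2, Tagln, Myl9, Tpm2, Fhl1 and Ca3). In all 7, NC library 1 was the lowest of NC and si-NC library 1 the lowest of si-NC, and in 6 of the 7 the whole order of the NC libraries was that of the si-NC libraries. The orders of CIRBP and si-CIRBP were the same for 2 of the 7, Acta2 and Ca3. All 7 moved together in si-NC library 1, at 0.083 (Ca3) to 0.109 (Actg2) of the mean of si-NC libraries 2 and 3. They come from the same libraries, so these counts of genes are not independent. Acta2 in CIRBP stood at 0.177%, 0.179% and 0.191% of its level in the same-numbered si-CIRBP libraries, and in NC at 0.542%, 0.228% and 0.230% of the same-numbered si-NC libraries. Over the 7 genes and 6 pairs these shares ran from 0.0994% to 5.51%, with a median of 0.255%. The depth of NC library 1 was the highest of NC. How much of the values of these 7 genes in CIRBP and NC is expression in those cultures was not tested.

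In CIRBP against NC, 1 of the 29 genes rose and 2 fell, beside 54.0% of all genes tested, 19.7% higher and 34.2% lower. The fit takes 1 spread per gene from all 12 libraries, so the spread within the si groups enters these tests. For Tpm1, for example, the SD was 0.0162 FPKM in CIRBP and 0.687 in NC, against 21.4 in si-CIRBP and 78.2 in si-NC. A gene not called here may therefore still differ between CIRBP and NC. Myl4 fell to 0.635 ± 0.16 FPKM in CIRBP, against 5.27 ± 0.492 in NC (SD, n = 3 each; log2 fold change -1.94, SE 0.2798, adjusted p = 0.000175), and kept that call in every alternative run. Myh11 fell, with 1.22, 1.17 and 1.23 FPKM in CIRBP and 3.39, 3.24 and 3.32 in NC (log2 fold change -0.97, SE 0.307, adjusted p = 0.0209). Atp2a2 rose, with 148, 149 and 147 FPKM in CIRBP and 131, 129 and 128 in NC (log2 fold change 0.19, SE 0.0711, adjusted p = 0.0398). The groups did not overlap for any of the 3. The Atp2a2 call was lost without any 1 of these 6 libraries, without the trend and with the replicate number as a block. Myh11 was lost without CIRBP library 1 or 2 or NC library 1 or 3 (adjusted p up to 0.0540).

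Fitted over the CIRBP and NC libraries alone, 12 of the 29 genes were called, 4 higher (Mylk, Des, Tnnt2 and Atp2a2) and 8 lower (Tagln, Cnn2, Myh11, Tpm1, Synpo2, Myl4, Myh3 and Klhl41), beside 70.7% of all genes. Without regard to the test, 4 and 11 of the 29 did not overlap between the groups in the higher and lower direction, beside 29.7% and 45.0% of all genes tested. Synpo2 was at 0.0325, 0.104 and 0.0562 FPKM in CIRBP and 0.486, 0.635 and 0.508 in NC. Klhl41 was at 0.177, 0.0625 and 0.119 FPKM in CIRBP and 0.471, 0.609 and 0.595 in NC. Des was the higher one in CIRBP, at 0.651, 0.7401 and 0.7501 FPKM against 0.2398, 0.238 and 0.1898 in NC. Tpm1 stood at 46.98, 47.01 and 46.98 FPKM in CIRBP and 56.4, 57.5 and 57.6 in NC. Tnni1 was listed at 0 in all 3 CIRBP libraries, against 0.324, 0.434 and 0.513 FPKM in NC, and did not reach the filter. With all libraries set to an equal median, the median log2 fold change over all genes was 0.03 in place of -0.08. The same 3 genes of the set were called in that setting, with Atp2a2 at 0.34, beside 55.0% of all genes.

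**Figure D5:**
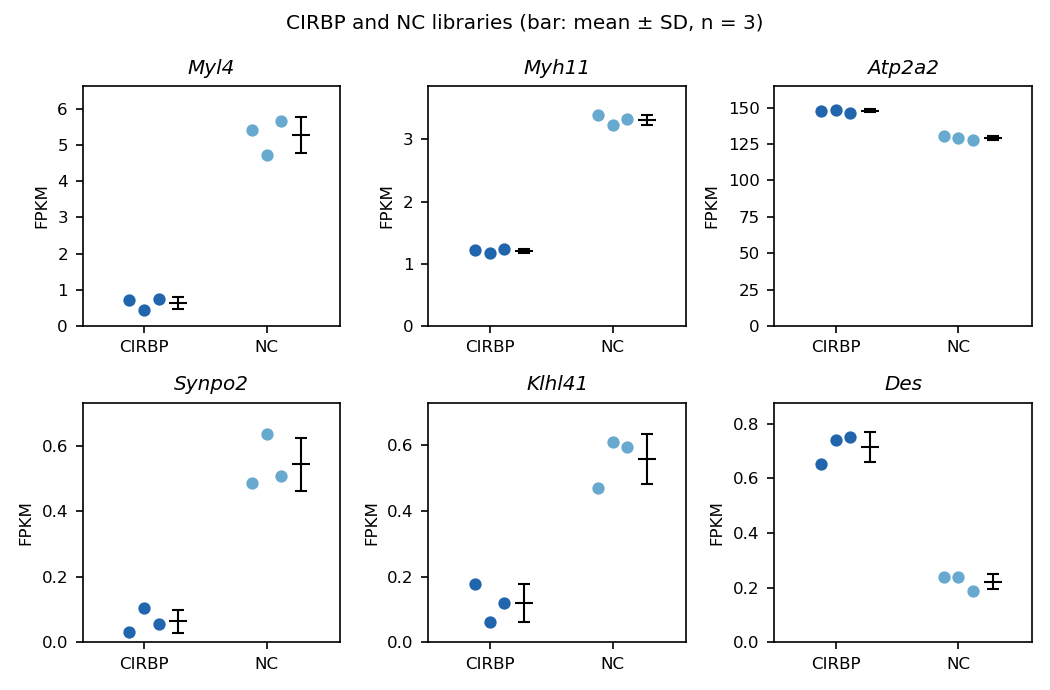
FPKM of 6 genes in the 3 CIRBP and 3 NC libraries, with the mean and SD beside the points and axes from 0. CIRBP lies below NC for Myl4, Myh11, Synpo2 and Klhl41 and above it for Atp2a2 and Des, with no overlap in any panel, and Synpo2, Klhl41 and Des did not pass limma over all 12 libraries.

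In si-CIRBP against si-NC no gene of the 29 was called by limma, beside 29.6% of all genes tested (9.08% higher and 20.5% lower). A fit of those 6 libraries alone called none either, beside only 8.10% of all genes tested. At an unadjusted p under 0.05, 3 were higher (Cald1, Tnnt3 and Mylpf) and none lower, with the share of all genes at that threshold not computed. Cald1 alone did not overlap, at 295, 281 and 281 FPKM in si-CIRBP and 173, 271 and 234 in si-NC (log2 fold change 0.36, SE 0.124, adjusted p = 0.0506), where 11.7% of all genes tested lay apart in that direction and 24.3% in the other. Mylpf was at 14.8 ± 12.9 FPKM in si-CIRBP and 2.96 ± 2.09 in si-NC (SD, n = 3 each; log2 fold change 1.57, SE 0.708, adjusted p = 0.122). Leaving out 1 library changed these counts. Without si-NC library 1, 7 genes were lower in si-CIRBP and none higher (Actg2, Tagln, Cnn1, Myh11, Mylk, Synpo2 and Fhl1), beside 28.2% of all genes called. Without si-CIRBP library 1, 5 were higher and none lower (Acta1, Tnnt3, Tnnc2, Mylpf and Myh3), beside 35.7% of all genes called. Without si-NC library 2, Cald1 and Tnnt3 were higher, beside 31.7%. The comparisons are linked through shared groups, since each of the 4 groups enters both a comparison within its arm and one between arms.

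The effect of the treatments was also compared between arms, as si-CIRBP minus si-NC less CIRBP minus NC. Myl4 alone was called among the 29 (log2 fold change 2.01, SE 0.396, adjusted p = 0.00682), beside 17.8% of all genes tested (10.9% higher and 6.87% lower). Without si-NC library 1, 4 more genes were called lower in this difference (Actg2, Cnn1, Mylk and Des), beside 21.7% of all genes called. Without si-CIRBP library 1, 5 in all were higher, beside 31.6% of all genes called. The log2 fold change of Myl4 was 0.07 in si-CIRBP against si-NC and -1.94 in CIRBP against NC.

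Other genes of the same machinery, from 4 further lists, were tested alongside. Several of them, such as Neb, Lmod3, Trim63, Csrp2 and Jph2, reached the filter only through the si libraries. This favours genes higher there, so the counts between arms for these lists are a description and no support. Of 52 further sarcomere symbols, 32 had a row and 21 were tested. Of these, 15 rose and 3 fell in si-CIRBP against CIRBP, where 22.0% of all genes tested rose and 22.5% fell, and 9 rose and 3 fell in si-NC against NC, where 12.5% rose and 21.9% fell. Ankrd1, a stretch-sensitive repressor bound to titin, was at 204, 232 and 282 FPKM in si-CIRBP, 28.2, 364 and 250.2 in si-NC, 1.01, 0.9705 and 1.19 in CIRBP and 1.71, 2.37 and 2.24 in NC (log2 fold changes 6.86 and 5.49). Klhl40, which stabilises nebulin, rose in both (1.99 and 0.59). Cryab, a small heat shock protein that guards desmin, was at 122, 116 and 134 FPKM in si-CIRBP and 63.3, 60.2 and 66.4 in CIRBP (log2 fold change 0.96). Tmod4, a tropomodulin of skeletal muscle, fell in si-NC against NC (log2 fold change -0.70, adjusted p = 0.00282). In CIRBP against NC, 3 rose and 5 fell, beside 54.0% of all genes called, led by Cryab (log2 fold change -1.30) and Klhl40 (-1.27), which fell, and Klhl30 (0.57), which rose. In si-CIRBP against si-NC, Klhl30 alone rose (log2 fold change 0.36, adjusted p = 0.0208) and none fell, where 9.08% of all genes tested rose and 20.5% fell. The difference between arms was called for Cryab (log2 fold change 1.13, adjusted p = 0.000228) and Klhl40 (log2 fold change 1.40, adjusted p = 0.000247), beside 17.8% of all genes tested.

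Of 30 further smooth muscle and cytoskeletal symbols, 28 had a row and 26 were tested, and 16 rose and 5 fell in si-CIRBP against CIRBP (all genes tested: 22.0% rose and 22.5% fell). In si-NC against NC 12 rose and 5 fell (all genes tested: 12.5% and 21.9%). The non-muscle actin Actg1 rose in both (log2 fold changes 0.91 and 0.42), and Flna, the filamin that links actin filaments, in the first (1.30). Synm, an intermediate filament protein, fell in both (-0.75 and -1.20). In CIRBP against NC, 5 rose and 4 fell (54.0% of all genes were called), with Ppp1r12a, the targeting subunit of myosin phosphatase (-0.71), and Pdlim3 (-0.97) lower and Myh10, a non-muscle myosin heavy chain (0.63), higher. In si-CIRBP against si-NC, 6 rose and 2 fell (all genes tested: 9.08% and 20.5%). Actg1 was at 811, 855 and 812 FPKM in si-CIRBP and 549, 583 and 554 in si-NC (log2 fold change 0.56, SE 0.0506, adjusted p = 4.19e-05). Ppp1r12a fell there too (log2 fold change -0.44, adjusted p = 0.000117), and Csrp1, a LIM protein of smooth muscle, rose (log2 fold change 0.46, adjusted p = 0.00346). The difference between arms was called for 5 genes of this list, beside 17.8% of all genes tested, with Actg1 (0.50), Pdlim3 (0.66) and Ppp1r12a (0.26) first.

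Of 31 further calcium store and coupling symbols, 25 had a row and 19 were tested, and 7 rose and 5 fell in si-CIRBP against CIRBP (all genes tested: 22.0% rose and 22.5% fell). In si-NC against NC 5 rose and 3 fell (all genes tested: 12.5% and 21.9%). Jph2, a junctophilin that holds the store at the membrane, was at 16.2, 12.2 and 14.8 FPKM in si-CIRBP, 1.87, 23.3 and 16.7 in si-NC, 0.333, 0.135 and 0.311 in CIRBP and 0.164, 0.131 and 0.233 in NC (log2 fold change 3.19 for si-NC against NC). Calr, the calcium-binding chaperone of the ER, rose in both (log2 fold changes 0.68 and 0.50), and Camk2d, a calmodulin-dependent kinase, fell in si-NC against NC (-0.33). In CIRBP against NC, 3 rose and 2 fell (54.0% of all genes were called). Atp2a3, the SERCA3 pump, rose there, at 1.74, 1.68 and 1.38 FPKM in CIRBP and 0.1297, 0.173 and 0.103 in NC (log2 fold change 1.19, SE 0.126, adjusted p = 1.91e-05). Stim1, the sensor of store calcium (0.49), and Fkbp1b, a ryanodine receptor partner (1.04), rose as well. Both Atp2a3 (-1.10) and Stim1 (-0.48) fell in si-CIRBP against CIRBP, and the difference between arms was called for both (-1.26 and -0.29). In si-CIRBP against si-NC, Fkbp1b (0.58) and Asph (0.89) rose and Orai1, the store-operated calcium channel, fell (-0.32).

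Of 21 neuromuscular junction and adhesion symbols, 20 had a row and 17 were tested, and 8 rose and 4 fell in si-CIRBP against CIRBP (all genes tested: 22.0% rose and 22.5% fell). In si-NC against NC 7 rose and 3 fell (all genes tested: 12.5% and 21.9%). Rapsn, the scaffold that clusters acetylcholine receptors, was at 32.2, 29.4 and 34.9 FPKM in si-CIRBP, 4.36, 40.6 and 30.5 in si-NC, 1.36, 1.62 and 1.57 in CIRBP and 2.44, 1.93 and 2.05 in NC (log2 fold change 3.72 for si-CIRBP against CIRBP). The receptor subunit Chrnb1 rose there as well (1.80), and Dysf, the membrane repair protein dysferlin, rose in si-NC against NC (2.54), where the subunit Chrne fell (-0.78). Dag1, dystroglycan, was at 285, 259.8 and 256 FPKM in si-CIRBP, 225, 226 and 229 in si-NC, 336, 331 and 321 in CIRBP and 183, 179.5 and 178 in NC. It rose in CIRBP against NC (log2 fold change 0.87, SE 0.0481, adjusted p = 2.71e-07), in si-CIRBP against si-NC (0.23) and in si-NC against NC (0.33), and fell in si-CIRBP against CIRBP (-0.30). Sgcb, a sarcoglycan, rose in CIRBP against NC (0.75). Colq, which anchors acetylcholinesterase, fell in CIRBP against NC (-1.22) and in si-CIRBP against si-NC (-0.69), where Lrp4, the agrin receptor, rose (0.37). The difference between arms was called for Dag1 (-0.63), Agrn (-0.61) and Chrne (0.67) among others.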

How the data were processed

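Poly-A RNA of 12 libraries had been sequenced as paired ends, per the labels' protocols, and the deposited table holds the authors' FPKM values for each gene. The submitters' processing notes list Bowtie2 2.3.3.1 and Cufflinks 2.2.1, with GRCm38 and mm10, which are mouse assemblies, but no role for any. Gene identifiers are rat, so the build stays unclear, as do strand and the treatment of shared reads. Columns of CIRBP and NC carry a prefix ad that the labels do not explain.

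Groups were compared with limma 3.58.1 in R 4.3.3 (eBayes with a trend, 8 residual and 2.53 prior degrees of freedom) on log2(FPKM + 1), which understates changes of low genes, with Benjamini-Hochberg adjustment over all 14257 genes tested. The fit was also run on simulated data in which each gene had the same spread in every group. The real groups differed in spread, so that run does not check the fit under such a difference. All 40 symbols are accounted for, and of each further list up to 3 called genes with the smallest adjusted p per comparison were named, except 1 that is not reported here. The members and lists were chosen with earlier results of these data known. Sequences came from RefSeq tables of GRCr8, matched by symbol. Alternatives changed the pseudocount, filter, scaling, libraries fitted, variance model and replicate block, and left out single libraries.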

Additional observations from a re-analysis of the deposited data

Results flagged for a closer look

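Myl4 was the 1 gene of the set for which the effect of treatment differed between the arms in a test of that difference (log2 2.01, SE 0.396, adjusted p = 0.00682 with limma). It stood at 5.25, 9.88 and 15.1 FPKM in si-CIRBP and 7.36, 11.4 and 8.07 in si-NC, and at 0.721, 0.4501 and 0.733 in CIRBP and 5.42, 4.72 and 5.66 in NC. Over the alternatives the difference ran from 1.69 to 2.96.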

How the results depend on the processing

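No call named for the set reversed. Of 19 calls in si-NC minus NC, 12 were kept in every alternative run for them, as were 21 of 27 in si-CIRBP minus CIRBP and 1 of 3 in CIRBP minus NC. In CIRBP minus NC, 1 gene was higher and 2 were lower, beside 54.0% of all genes called. A fit of those groups alone gave 4 and 8 (70.7% of all genes), and a variance factor per group 2 and 3 (71.3%). The fits without the trend or with the replicate block gave 0 higher and 2 lower (53.8% and 52.7%). Leaving out single libraries gave 0 higher and 1 to 2 lower, beside 46.9% to 47.8% of all genes called. In si-CIRBP minus si-NC, 0 were called. With a pseudocount of 0.1, without the filter, with the stricter filter or with either scaling 1 was higher, beside 23.4% to 30.7% of all genes called. There, leaving out single libraries gave 0 to 5 higher and 0 to 7 lower, beside 22.8% to 35.7% of all genes called. In the difference of arms, 1 gene was higher, against 2 without the filter. Its runs without single libraries gave 1 to 5 higher and 0 to 4 lower, beside 11.2% to 31.6% of all genes called. Leaving out si-NC library 1 and si-CIRBP library 1 together, chosen after the data were seen, gave 7 higher and 9 lower in si-CIRBP minus si-NC and 6 higher and 5 lower in the difference of arms, and 28 higher in each comparison between arms. The shares of all genes called were 41.8% in si-CIRBP minus si-NC and 41.4% in the difference of arms. They were 59.1% in si-CIRBP minus CIRBP and 57.4% in si-NC minus NC. The cause of these shifts was not tested. Over all genes, the deviations of same-numbered libraries correlated by -0.0898 to 0.0995, too low to take the number as a pairing. NC and si-NC had the same order for 13 of 16 rows high in the si arm alone, but these rows are not independent. The replicate block changed the count in si-NC minus NC to 20, beside 31.7% of all genes called. Depth is unknown, so counting error, which weighs most on values under 1 FPKM and on the library orders drawn from them, cannot be stated.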

Other observations

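Outside the set, 9 other rows averaged at least 50 FPKM in the si libraries and stayed under 3 FPKM in all CIRBP and NC libraries. Col3a1, a fibrillar collagen chain, was at 217, 334 and 447 FPKM in si-CIRBP, 27.9, 475 and 261 in si-NC, 1.31, 1.69 and 2.01 in CIRBP and 0.8102, 1.28 and 1.03 in NC. Over all 16 such rows, NC library 1 and si-NC library 1 were both the lowest of their group in 13, the whole order of the NC and si-NC libraries was the same in 13, and that of the CIRBP and si-CIRBP libraries in 6. The rows were chosen by their values and share the same libraries, so these counts are not independent. The level of these rows in CIRBP and NC was 0.0502% to 9.37% of that in the same-numbered si library, with a median of 0.391%. Thy1, a surface protein of fibroblasts and neurons, was at 56.8, 42.9 and 49.5 FPKM in si-CIRBP, 3.86, 65.3 and 40.1 in si-NC, 0.178, 0.135 and 0.263 in CIRBP and 0.0786, 0.2102 and 0.155 in NC.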
